A study of Mus musculus with 23 samples.

Results

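Astrocytes release and display proteins that shape the synapses around them, and 10 genes for such proteins were followed here in astrocytes isolated from mouse cerebral cortex: the thrombospondins Thbs1, Thbs2, Thbs3 and Thbs4, the SPARC proteins Sparc and Sparcl1, the glypicans Gpc4 and Gpc6, the bone morphogenetic protein antagonist Chrdl1 and the engulfment receptor Megf10. They were chosen by name, from what is known of their function, when earlier results of these data were already known. All 10 were found among the 24411 gene symbols of the count table. The study asked how loss of the aldehyde dehydrogenase ALDH7A1 from astrocytes, and a diet that contains sulforaphane (SFN, a compound that activates the antioxidant transcription factor NRF2), change these cells. Astrocytes were pulled out by MACS, in which magnetic beads bind a marker on the cells (here ACSA-2), and polyadenylated RNA was sequenced in 23 libraries. All mice were male, carried floxed Aldh7a1 on both alleles, received 4-hydroxytamoxifen on postnatal days 3 to 4, and were collected on postnatal day 70. ConAstro mice (Aldh7a1 flox/flox without Cre) and cKOAstro mice (Slc1a3-CreER/+; Aldh7a1 flox/flox) were on the control diet, with 4 and 7 libraries. SFN-fed ConAstro and SFN-fed cKOAstro mice had the SFN diet from postnatal day 21, with 5 and 7 libraries. The controls were littermates that lacked Cre but had the drug, so CreER, which is expressed from 1 allele of the glutamate transporter gene Slc1a3 in the cells that use its promoter, was carried by the cKOAstro groups alone. For RNA-seq, the study gives n as the number of animals per condition. The labels themselves do not say how cells of single animals were divided among libraries, and p-values measure the spread between libraries.

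Thrombospondins are secreted matrix glycoproteins that promote the formation of excitatory synapses through the neuronal receptor encoded by Cacna2d1. SPARCL1, also called hevin, helps join the presynaptic and postsynaptic sides of a synapse, and SPARC counteracts it. Glypicans are heparan sulfate proteoglycans held on the cell surface by a lipid anchor, from which they can be shed to recruit AMPA-type glutamate receptors, CHRDL1 favours the mature form of those receptors, and MEGF10 lets astrocytes engulf synapses, so the set covers the making, maturing and removal of synapses.

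The deleted gene Aldh7a1 was measured at 207 to 220 CPM (counts scaled to the library total, with edgeR's trimmed mean of M values, TMM) in the 4 ConAstro libraries and at 45.9 to 77.2 CPM in the 7 cKOAstro libraries, and Slc1a3 was at 3964 to 4979 and 1809 to 2870 CPM. Of the SFN-fed libraries, the one labelled ConAstro replicate 1 had 55.7 CPM of Aldh7a1 and 2100 CPM of Slc1a3. The one labelled cKOAstro replicate 2 had 222 and 4436 CPM, so both went against their labels. They were kept in their labelled groups, and changes that involve the SFN-fed groups are also given without them where the text names a gene's unadjusted p under 0.05. Of the libraries, 6 have names that begin with Astro (cKOAstro replicates 2 and 4, SFN-fed ConAstro replicate 1 and SFN-fed cKOAstro replicates 4, 5 and 6), and the other 17 have numbered names. The 4 ConAstro names begin with 1 number that 3 SFN-fed cKOAstro names share but no cKOAstro or SFN-fed ConAstro name has, so against those groups the start of the name and the group cannot be told apart, and the labels do not say what it marks. Total counts ran from 46890715 to 391701247 per library. They were 74771451 to 84049525 in ConAstro and 107847897 to 391701247 in cKOAstro. Between these 2 groups, depth and genotype thus cannot be told apart. The summed level of 10 astrocyte markers was 14365 to 26825 CPM per library, with none of the 10 at 0, while 8 oligodendrocyte markers summed to 21668 to 56204 CPM, so these preparations held other cells beside astrocytes.

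The 10 genes differed widely in level. Per kilobase (kb) of exon, Sparcl1 was highest in ConAstro, at 2260 ± 189 CPM per kb (SD, n = 4), followed by Sparc at 155 ± 30.2 CPM per kb. Megf10 had 42.0 ± 3.88, Chrdl1 27.2 ± 3.87, Gpc6 13.3 ± 1.92 and Gpc4 9.37 ± 1.10 CPM per kb. The thrombospondins were the lowest of the set, with Thbs3 at 3.62 ± 0.228, Thbs2 at 2.08 ± 2.42, Thbs4 at 1.73 ± 0.307 and Thbs1 at 1.20 ± 1.09 CPM per kb. In ConAstro the ranges of neighbours in this order were apart from Sparcl1 down to Gpc6 and between Gpc4 and Thbs3, but overlapped between Gpc6 and Gpc4 and among the 4 thrombospondins. The order from Sparcl1 to Thbs3 was alike in all 4 groups. Thbs4 lay above Thbs2 by 2.85 times in cKOAstro, higher in 7 of 7 libraries, whereas in ConAstro Thbs2 had the higher mean and exceeded Thbs4 in 1 of 4 libraries. With the length of the longest coding transcript in place of all exon bases, Chrdl1 (44.9 CPM per kb) and Megf10 (43.1 CPM per kb) changed places.

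**Figure D1:**
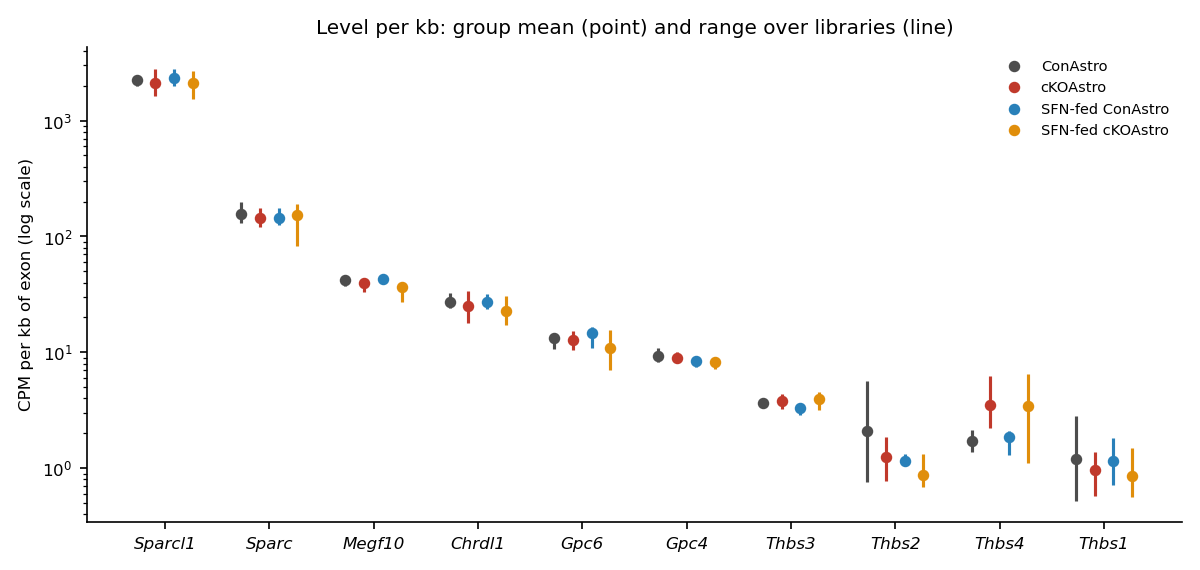
Level of each gene in CPM per kb of exon (log axis) in the 4 groups. Points are group means and lines run from the lowest to the highest library, and Sparcl1 sits more than 10 times above Sparc in every group while the thrombospondins sit lowest.

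The genes also differed in how far libraries of one group spread. Gpc4, Megf10 and Thbs3 were the steadiest, with a within-group SD of 0.12, 0.16 and 0.16 on the log2 scale. Gpc6, Chrdl1, Sparc and Sparcl1 lay between 0.25 and 0.29. Thbs1 (0.62), Thbs2 (0.66) and Thbs4 (0.59) spread most, although their lowest counts in any library were 249, 345 and 202 reads, so counting error is a small part of that spread.

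**Figure D2:**
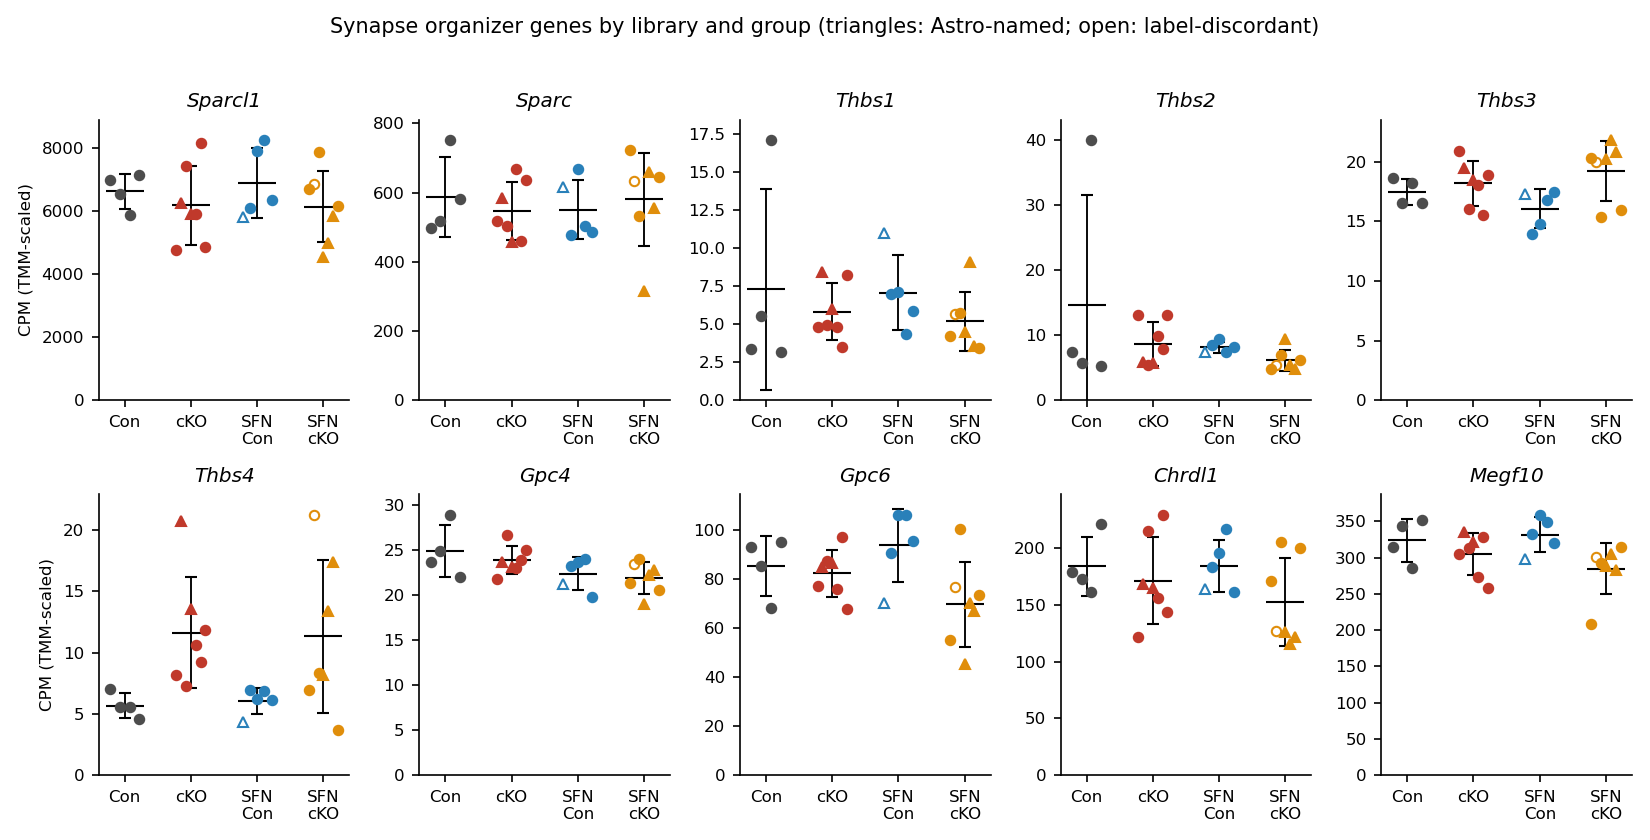
CPM of the 10 genes in each of 23 libraries by group, with horizontal bars for the mean and vertical bars for the SD (drawn only above 0). Triangles are the 6 libraries with Astro names, open symbols are the libraries that went against their labels, and the Thbs4 points of cKOAstro all lie above those of ConAstro while Thbs2 has a single ConAstro library at 39.9 CPM.

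No synapse organizer passed the threshold (edgeR quasi-likelihood test, Benjamini-Hochberg adjusted p under 0.05 over all genes tested) in any of the 8 comparisons that the design allows. In bulk RNA of this kind, fewer cells that express a gene and less of its RNA per cell cannot be told apart. For cKOAstro against ConAstro, 0 of 10 genes were called where 0.023% of all 17406 genes tested were, DESeq2 and limma-voom also called 0 of the 10 (0.0461% and 0.023% of genes), and 1 of 10 had an unadjusted p under 0.05 against 3.74% of all genes. For SFN-fed cKOAstro against SFN-fed ConAstro, edgeR and DESeq2 called 0 of 10, where 0% and 2.55% of genes tested were called, limma-voom with quality weights called 4 of 10 where it called 26.4% of all genes, and 5 of 10 had an unadjusted p under 0.05 against 20.3%. The diet comparisons had 0 of 10 called by each of the 3 tools, where edgeR and limma-voom called 0% of genes in both and DESeq2 0.14% in ConAstro and 0.0691% in cKOAstro. There, 0 of 10 had an unadjusted p under 0.05 in ConAstro (6.54% of all genes) and 0 of 10 in cKOAstro (10.9%). SFN-fed cKOAstro against untreated ConAstro gave 0 of 10 by each tool (edgeR 0%, DESeq2 0.048% and limma-voom 3.92% of genes) and 3 of 10 (Thbs2, Thbs4 and Gpc4) at an unadjusted p under 0.05 (8.67%).

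In the fit over all 4 groups, the interaction of genotype and diet gave 0 of 10 by each tool (edgeR and limma-voom 0%, DESeq2 0.0174% of genes) and 0 of 10 at an unadjusted p under 0.05 (7.32%). Genotype averaged over diets gave 0 of 10 with edgeR (0%), 1 of 10 with DESeq2 (1.44%) and 4 of 10 with limma-voom (21.9%), and 4 of 10 had an unadjusted p under 0.05 against 19.7%. Diet averaged over genotypes gave 0 of 10 by each tool (0% of genes each) and 2 of 10 at an unadjusted p under 0.05 (6.14%). The median log2 change of the 10 genes was -0.10 for cKOAstro against ConAstro, beside -0.01 over all genes, and -0.19 for SFN-fed cKOAstro against SFN-fed ConAstro, beside 0.01. On the control diet 8 of the 10 genes had a log2 change below 0 with edgeR, where 52.4% of all genes did, and on the SFN diet 7 of 10 did against 48.8%. DESeq2 gave the same 2 counts. With limma-voom 5 of 10 were below 0 on the control diet (median -0.006) and 6 of 10 on the SFN diet (median -0.16). Of the 8, Thbs1 and Thbs2 lay above 0 without ConAstro replicate 3. Without the label-discordant libraries, edgeR again called 0 of the 10 in all 7 comparisons that include them, where it called 0.012% of genes between the genotypes on the SFN diet and for SFN-fed cKOAstro against ConAstro, 0.029% for genotype averaged over diets and 0% in the other 4. At an unadjusted p under 0.05 the count without those libraries was 2 of 10 (Gpc6 and Megf10) between the genotypes on the SFN diet, beside 14.9% of genes, and 1 of 10 (Thbs2) for SFN-fed cKOAstro against ConAstro, beside 5.47%. Within the numbered libraries alone the latter count was 0 of 10, beside 4.51%. Without the label-discordant libraries, the count was 0 of 10 for the diet in ConAstro (8.41%) and in cKOAstro (6.94%). In that setting it was 1 of 10 (Gpc6) for the interaction (8.32%) and 4 of 10 for genotype averaged over diets (17% of genes). For diet averaged over genotypes it was 1 of 10 (Gpc4, beside 3.46%).

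**Figure D3:**
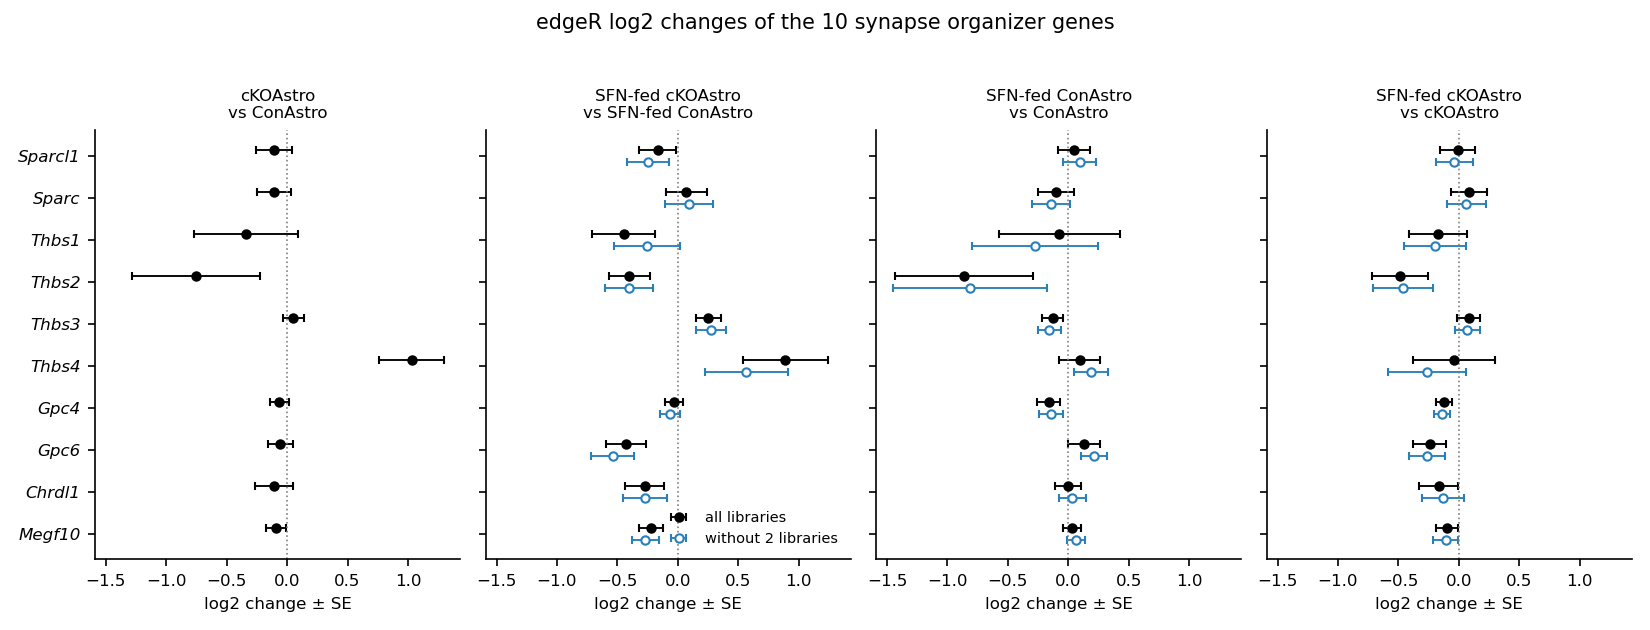
edgeR log2 changes with SE bars for the 10 genes in 4 comparisons, with all libraries (filled) and without the label-discordant libraries (open, where the comparison includes them). Thbs4 has the largest change in the genotype comparison on the control diet (1.03), and Thbs2 has wide bars wherever ConAstro is one side.

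Thbs4, a thrombospondin that in muscle and tendon organizes the matrix and that adult neural tissue also makes, had the largest change of the set in both genotype comparisons. It lies on the minus strand at chr13:92751590-92794818 of GRCm38. Its levels in ConAstro were 7.02, 5.56, 5.54 and 4.57 CPM, and the 7 cKOAstro libraries ran from 7.31 through a median of 10.6 to 20.7 CPM. All cKOAstro libraries were above all ConAstro libraries, which 0.287% of all genes tested showed in that direction. The log2 change was 1.03 ± 0.27 (SE) with an unadjusted p of 0.00232, rank 16 of 17406 genes, and an adjusted p of 0.981 (edgeR). DESeq2 gave 1.04 with an adjusted p of 0.123, the lowest of 20 alternatives, whose adjusted p reached 1.00. The pair of Astro-named cKOAstro libraries had 20.7 and 13.6 CPM and were the highest of their group. Within the numbered libraries, cKOAstro was at 9.43 ± 1.83 CPM (SD, n = 5) against 5.67 ± 1.01 CPM (n = 4), and the log2 change was 0.74 ± 0.17.

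On the SFN diet Thbs4 was at 4.31, 6.93, 6.18, 6.85 and 6.11 CPM in SFN-fed ConAstro, in the order of replicates, and at 3.68 to 21.2 CPM with a median of 8.36 CPM in SFN-fed cKOAstro. The lowest of the ConAstro values and the highest of the cKOAstro values belong to the label-discordant libraries. The groups overlapped, and the log2 change of 0.89 ± 0.35 (unadjusted p = 0.026, adjusted p = 0.209, edgeR) became 0.57 ± 0.34 (unadjusted p = 0.126) without those libraries. SFN-fed cKOAstro replicates 4, 5 and 6, with Astro names, had 8.21, 13.4 and 17.4 CPM. Of the numbered libraries of that group, replicate 2 had 21.2 CPM and replicate 7 had the lowest Thbs4 of all 23 libraries. Averaged over the diets, the genotype difference was 0.97 ± 0.24 on the log2 scale (unadjusted p = 0.000583, adjusted p = 0.164, edgeR). It was called by DESeq2 (0.97, adjusted p = 0.0274), by limma-voom (1.03, adjusted p = 0.00785) and by edgeR without SFN-fed cKOAstro replicate 3 (1.00, adjusted p = 0.0318). It was not called by edgeR without the label-discordant libraries (0.80 ± 0.23, adjusted p = 0.232), and over 32 alternatives the adjusted p ran from 0.00785 to 0.479. With the SFN diet, the log2 change of Thbs4 was 0.09 ± 0.17 in ConAstro and -0.04 ± 0.34 in cKOAstro, and the interaction was -0.14 ± 0.47. Without the label-discordant libraries these were 0.19 ± 0.14, -0.26 ± 0.32 and -0.46 ± 0.45. SFN-fed cKOAstro against ConAstro gave 0.98 ± 0.40 (unadjusted p = 0.0310, adjusted p = 0.557), and 0.77 ± 0.36 (unadjusted p = 0.0591) without the label-discordant library of that comparison.

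For Thbs4 and Thbs2, the 250 bases before the transcription start are shown, from the RefSeq promoter table for GRCm38.p6. That table holds 5 of the 10 genes (Thbs2, Thbs3, Thbs4, Sparc and Gpc4). The Thbs4 window is chr13:92794819-92795068 and the Thbs2 window chr17:14694263-14694512, both written in the direction of the minus strand, 5′ to 3′. Capitals mark the GC box GGGCGG in Thbs4 and the TATA box TATAAA in Thbs2, on either strand.
Thbs4: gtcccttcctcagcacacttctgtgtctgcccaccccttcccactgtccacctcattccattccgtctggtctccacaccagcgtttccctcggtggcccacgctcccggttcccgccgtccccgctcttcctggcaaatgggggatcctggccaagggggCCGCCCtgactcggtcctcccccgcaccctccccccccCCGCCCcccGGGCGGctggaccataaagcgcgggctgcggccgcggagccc
Thbs2: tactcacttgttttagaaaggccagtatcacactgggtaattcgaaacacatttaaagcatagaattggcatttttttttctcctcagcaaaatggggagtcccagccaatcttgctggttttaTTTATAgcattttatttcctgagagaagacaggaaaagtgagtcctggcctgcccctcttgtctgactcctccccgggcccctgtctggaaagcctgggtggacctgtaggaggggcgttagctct
The Thbs4 window is 70.8% G and C and holds 3 GC boxes, which begin 89, 51 and 42 bases before the start, and GC boxes are in 32.9% of all 27025 promoter windows of the table. The Thbs2 window is 46.8% G and C. It holds a match to the letters TATAAA on the opposite strand (printed as TTTATA), 126 bases before the start. Matches on either strand are in 13.0% of windows, and whether this one acts as a TATA box was not tested. The core of the antioxidant response element bound by NRF2 (TGACNNNGC, in 10.1% of windows), the AP-1 site (TGANTCA, 6.87%), the cAMP response element (TGACGTCA, 1.62%) and the E-box (CACGTG, 6.05%) were searched on both strands and matched none of the 5 windows. GC boxes were also found 21 bases before the Thbs3 start and 217 bases before the Gpc4 start. In the GENCODE annotation, 238 of the 250 bases of the Sparc window and all of the Gpc4 window lie in exons of the same gene. The motifs were chosen after expression values had been seen.

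Thbs2 and Thbs1 encode the thrombospondins best known from immature astrocytes. Thbs2 (chr17:14665500-14694235, minus strand) was at 7.36, 5.70, 39.9 and 5.32 CPM in ConAstro, and Thbs1 (chr2:118111876-118127133, plus strand) at 3.40, 5.56, 17.1 and 3.18 CPM. ConAstro replicate 3 was thus the highest of all 23 libraries for both genes. In cKOAstro, Thbs2 ran from 5.41 through a median of 7.89 to 13.1 CPM and Thbs1 from 3.50 through 4.97 to 8.46 CPM, and both genes overlapped between the groups. The log2 changes for cKOAstro against ConAstro were -0.76 ± 0.53 for Thbs2 and -0.34 ± 0.43 for Thbs1, and without ConAstro replicate 3 they were 0.50 and 0.52. That library also had the highest sum of 6 ependymal markers in its group, 620 CPM against 215, 243 and 223 CPM in the others, with none of the 6 at 0 in any library. Whether ependymal RNA has a part in its Thbs1 and Thbs2 levels was not tested.

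On the SFN diet, Thbs2 was at 7.37, 8.49, 9.37, 7.35 and 8.19 CPM in SFN-fed ConAstro and at 4.80 to 9.38 CPM, with a median of 5.48 CPM, in SFN-fed cKOAstro. Of the 7 SFN-fed cKOAstro libraries, 6 were below every SFN-fed ConAstro library, and replicate 4 lay above them all. The log2 change was -0.40 ± 0.17 (unadjusted p = 0.0344, adjusted p = 0.223, edgeR) and -0.41 ± 0.20 (unadjusted p = 0.0654) without the label-discordant libraries. With the SFN diet, the log2 change of Thbs2 was -0.86 ± 0.57 in ConAstro and -0.49 ± 0.23 in cKOAstro, and that of Thbs1 was -0.07 ± 0.50 and -0.17 ± 0.24. Diet averaged over genotypes gave Thbs2 a log2 change of -0.67 ± 0.28 (unadjusted p = 0.0279, adjusted p = 0.759), which was -0.65 (unadjusted p = 0.0544) without the label-discordant libraries and -0.05 without ConAstro replicate 3. SFN-fed cKOAstro against ConAstro gave Thbs2 -1.25 ± 0.50 (unadjusted p = 0.0267, adjusted p = 0.557), -1.23 (unadjusted p = 0.0458) without the label-discordant library and 0.00 without ConAstro replicate 3. Thbs1 was -0.45 ± 0.26 between the genotypes on the SFN diet and -0.25 without the label-discordant libraries, since the library labelled SFN-fed ConAstro replicate 1 had the highest Thbs1 of its group.

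Thbs3 (chr3:89215180-89226837, plus strand) belongs to the same subgroup of thrombospondins as Thbs4. It was the steadiest thrombospondin, at 17.5 ± 1.10 CPM in ConAstro and 18.2 ± 1.87 CPM in cKOAstro (SD, n = 4 and 7). With the SFN diet it was at 16.1 ± 1.61 and 19.2 ± 2.49 CPM (n = 5 and 7). On the control diet its log2 change was 0.05 ± 0.09. On the SFN diet it was 0.25 ± 0.11 (unadjusted p = 0.0323, adjusted p = 0.219, edgeR) and 0.28 without the label-discordant libraries (unadjusted p = 0.0516), and the groups overlapped. Its log2 changes with the SFN diet were -0.13 ± 0.09 in ConAstro and 0.08 ± 0.10 in cKOAstro. Its exons share 318 bases, 6.59% of its exon bases, with Mtx1 on the opposite strand, and 208 bases of Thbs1, 3.42%, are shared with Gm29233. Whether counting used the strand is not given in the sources used here, so reads from those bases cannot be told apart.

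The SPARC proteins had the highest levels of the set, and their group means lay within the spread between libraries. Sparcl1 (chr5:104079111-104113733, minus strand) was at 6638 ± 554 CPM in ConAstro and 6183 ± 1254 CPM in cKOAstro (SD, n = 4 and 7), and with the SFN diet at 6883 ± 1109 and 6145 ± 1133 CPM (n = 5 and 7). Its log2 changes were -0.11 ± 0.15 for cKOAstro against ConAstro and -0.17 ± 0.15 for SFN-fed cKOAstro against SFN-fed ConAstro. Sparc (chr11:55394500-55423183, minus strand) was at 588 ± 115, 547 ± 83.9, 551 ± 86.3 and 581 ± 133 CPM in the same order of groups. Its log2 changes between genotypes were -0.11 ± 0.14 without SFN and 0.07 ± 0.17 with it, and the lowest and highest libraries were SFN-fed cKOAstro replicate 4 (315 CPM) and ConAstro replicate 3 (751 CPM). With the SFN diet, the log2 change of Sparcl1 was 0.05 ± 0.13 in ConAstro and -0.01 ± 0.14 in cKOAstro, and that of Sparc was -0.10 ± 0.15 and 0.09 ± 0.15. The unadjusted p of Sparc and Sparcl1 was 0.230 or more in each of the 8 comparisons.

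Gpc6 (chr14:116925315-117976544, plus strand) had the lowest p of the set in the genotype comparison on the SFN diet. It was at 70.3, 90.7, 106, 106 and 95.8 CPM in SFN-fed ConAstro and at 45.5 to 100 CPM, with a median of 70.2 CPM, in SFN-fed cKOAstro. SFN-fed cKOAstro replicate 3 lay among the ConAstro values, and the other 6 were below every ConAstro library but the label-discordant replicate 1. In SFN-fed cKOAstro the 3 Astro-named libraries averaged 60.9 CPM (45.5 to 70.2) and the 4 numbered ones 76.4 CPM (55.2 to 100). The label-discordant replicate 1 is the only Astro-named SFN-fed ConAstro library. Without the label-discordant libraries, only SFN-fed cKOAstro holds Astro-named libraries, so genotype and name series are then partly mixed. The log2 change was -0.43 ± 0.17 (unadjusted p = 0.0218, adjusted p = 0.203, edgeR) and -0.54 without the label-discordant libraries (unadjusted p = 0.0114, adjusted p = 0.310). On the control diet Gpc6 was at 85.5 ± 12.3 CPM in ConAstro (SD, n = 4) and 82.5 ± 9.61 CPM in cKOAstro (n = 7), a log2 change of -0.06 ± 0.10. Its log2 changes with the SFN diet were 0.13 ± 0.13 in ConAstro and -0.24 ± 0.14 in cKOAstro. The interaction was -0.37 ± 0.21 (unadjusted p = 0.0944, adjusted p = 0.694), so a difference between the diets in the genotype change of Gpc6 was not shown. Without the label-discordant libraries the interaction was -0.48 (unadjusted p = 0.0326, adjusted p = 0.581).

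Gpc4 (chrX:52053021-52165252, minus strand) showed the smallest relative spread of the set. Its means were 24.8 ± 2.91 CPM in ConAstro, 23.9 ± 1.56 in cKOAstro, 22.3 ± 1.83 in SFN-fed ConAstro and 21.9 ± 1.75 in SFN-fed cKOAstro (SD, n = 4, 7, 5 and 7). Its log2 changes with the SFN diet were -0.16 ± 0.10 in ConAstro and -0.12 ± 0.06 in cKOAstro, and -0.14 for each without the label-discordant libraries. Averaged over genotypes the diet difference was -0.14 ± 0.05 (unadjusted p = 0.0168, adjusted p = 0.759, edgeR) and -0.15 ± 0.06 without those libraries (unadjusted p = 0.0169, adjusted p = 0.998), and the ranges of fed and control groups overlapped. SFN-fed cKOAstro against ConAstro gave Gpc4 -0.20 ± 0.09 (unadjusted p = 0.0426, adjusted p = 0.557), and the unadjusted p was 0.0629 without the label-discordant library. The genotype differences of Gpc4 were -0.07 ± 0.08 without SFN and -0.03 ± 0.07 with it.

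Chrdl1 (chrX:143285674-143394262, minus strand) was at 184 ± 26.2 CPM in ConAstro and 171 ± 38.2 CPM in cKOAstro (SD, n = 4 and 7), and with the SFN diet at 184 ± 23.2 and 153 ± 38.8 CPM (n = 5 and 7). Its log2 change between genotypes was -0.11 ± 0.16 without SFN and -0.27 ± 0.16 with it (unadjusted p = 0.115, edgeR). With the SFN diet it was -0.00 ± 0.11 in ConAstro and -0.17 ± 0.16 in cKOAstro. The 3 Astro-named SFN-fed cKOAstro libraries had 126, 116 and 122 CPM, and the label-discordant replicate 2 had 127 CPM. Replicates 1, 3 and 7 of that group had 171, 205 and 200 CPM, inside the range of SFN-fed ConAstro, so Chrdl1 split SFN-fed cKOAstro into a lower and a higher set of libraries. The numbered SFN-fed cKOAstro libraries alone averaged 176 ± 35.7 CPM (SD, n = 4).

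Megf10 was at 299, 333, 359, 349 and 321 CPM in SFN-fed ConAstro and at 209 to 315 CPM, with a median of 293 CPM, in SFN-fed cKOAstro. The groups overlapped only through the library labelled SFN-fed ConAstro replicate 1. Without the label-discordant libraries, all SFN-fed cKOAstro libraries were below all SFN-fed ConAstro libraries, which 1.66% of genes tested showed in that direction. The log2 change was -0.22 ± 0.10 (unadjusted p = 0.0409, adjusted p = 0.234, edgeR), -0.27 without those libraries (unadjusted p = 0.0378) and -0.16 without SFN-fed cKOAstro replicate 1, the lowest library. On the control diet Megf10 was at 324 ± 29.9 CPM in ConAstro and 305 ± 29.1 CPM in cKOAstro (SD, n = 4 and 7), a log2 change of -0.09 ± 0.08. Its log2 changes with the SFN diet were 0.03 ± 0.07 in ConAstro and -0.10 ± 0.09 in cKOAstro. Averaged over the diets the genotype difference was -0.15 ± 0.06 (unadjusted p = 0.0267, adjusted p = 0.210), and -0.18 (unadjusted p = 0.0151) without the label-discordant libraries.

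Markers of other cell types stood at unequal levels beside these genes, and edgeR called none of them in either genotype comparison. On the SFN diet, the summed level of 8 endothelial markers had a median of 520 CPM in SFN-fed ConAstro (456 to 725) and 264 CPM in SFN-fed cKOAstro (168 to 734). The 8 mural markers had medians of 1754 CPM (1309 to 2075) and 1211 CPM (756 to 1809), the 8 fibroblast markers 181 CPM (151 to 200) and 140 CPM (87.3 to 190), and the 8 microglia markers 1453 CPM (690 to 2188) and 417 CPM (213 to 2548). The ranges of each sum overlapped. Of these lists, 6 endothelial, 4 mural, 6 fibroblast and 0 microglia markers had an unadjusted p under 0.05 (edgeR), beside 20.3% of all genes. The lowest adjusted p was 0.195. Those counts were 0, 2, 4 and 0 without the label-discordant libraries, beside 14.9% of all genes. For SFN-fed ConAstro against ConAstro, 4 endothelial, 3 mural and 6 fibroblast markers were higher at an unadjusted p under 0.05 and 0 were lower. The share of all genes there was 6.54%. Without the label-discordant library these counts were 5, 3 and 6, beside 8.41%.

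On the control diet, all 8 endothelial markers had log2 changes below 0 for cKOAstro against ConAstro. Of these, 4 had an unadjusted p under 0.05, beside 3.74% of all genes. The sums had medians of 316 CPM (215 to 564) in ConAstro and 259 CPM (208 to 302) in cKOAstro. All 8 neuron and all 6 ependymal markers had log2 changes above 0, none at an unadjusted p under 0.05. Unlike on the SFN diet, 7 of 8 mural and 7 of 8 fibroblast markers had log2 changes above 0. At an unadjusted p under 0.05, 2 mural and 1 fibroblast markers were higher and 0 were lower. Of 10 genes that dissociation of tissue induces, all had log2 changes below 0, and the heat shock genes Hspa1a (-0.78 ± 0.25, unadjusted p = 0.00825) and Hspa1b (-0.85 ± 0.35, unadjusted p = 0.0332) stood farthest from 0. No marker of the endothelial, mural, fibroblast, microglia or ependymal lists was at 0 in any library. The part of these cells in the values of the 10 genes was not tested, beyond the correlations of library levels.

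Genes related to the set were followed as 3 lists, and edgeR called none of them in any comparison. Of 14 family relatives, the highest per kb in ConAstro were Gpc5 at 59.2 ± 5.81, Spock2 at 41.4 ± 10.6 and Gpc1 at 15.5 ± 1.32 CPM per kb (SD, n = 4), so the glypican Gpc5 exceeded both glypicans of the set. Of 15 receptors and binding partners, Lrp1 (79.6 ± 14.2 CPM per kb), an endocytic receptor for thrombospondins, and Itgb1 (60.3 ± 1.88), an integrin subunit, were highest. Of 22 other astrocyte genes that act on synapses or their matrix, Apoe, the main lipid carrier of the brain, had 5451 ± 601 CPM per kb, the matrix proteoglycan Bcan 632 ± 59.5 and the phagocytosis bridge Mfge8 540 ± 83.7.

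At an unadjusted p under 0.05, cKOAstro against ConAstro gave 2 of 14 relatives, 1 of 15 partners and 1 of 22 other regulators, beside 3.74% of all genes. The lowest p of each list belonged to the calcium-binding matrix protein Smoc2 (log2 change 0.89 ± 0.25, unadjusted p = 0.00382), the neuroligin Nlgn3 (-0.21 ± 0.06, unadjusted p = 0.00270) and the growth factor Bmp4 (0.57 ± 0.16, unadjusted p = 0.00400), each with an adjusted p of 0.981. On the SFN diet the counts were 2 of 14, 3 of 15 and 3 of 22, all 8 with lower levels in SFN-fed cKOAstro, beside 20.3% of all genes. Smoc2 (-0.45 ± 0.19, unadjusted p = 0.0337), Lrp1 (-0.41 ± 0.13, unadjusted p = 0.00865) and the growth factor Bmp7 (-0.30 ± 0.11, unadjusted p = 0.0132) had the lowest p there, with adjusted p of 0.222, 0.195 and 0.195. The neuroligin gene Nlgn1 was among the 8, at -0.37 ± 0.13. With the label-discordant libraries left out, 1 of 14, 3 of 15 and 2 of 22 had an unadjusted p under 0.05, beside 14.9% of all genes. Smoc2 was then at -0.53, Lrp1 at -0.45, Bmp7 at -0.33 and Nlgn1 at -0.45. Cacna2d1, the thrombospondin receptor gene, had no p under 0.05 in any comparison.

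For the SFN diet in ConAstro the counts were 3 of 14, 1 of 15 and 3 of 22, beside 6.54% of all genes, and the lowest p belonged to Gpc3 (0.43 ± 0.14, unadjusted p = 0.0103), Itgb1 (0.13 ± 0.05, unadjusted p = 0.0298) and Bmp4 (0.63 ± 0.19, unadjusted p = 0.00874). In cKOAstro they were 2 of 14, 1 of 15 and 1 of 22, beside 10.9%, led by Smoc2 (-0.69 ± 0.19, unadjusted p = 0.00287), Lrp1 (-0.25 ± 0.11, unadjusted p = 0.0330) and Bmp6 (-0.56 ± 0.17, unadjusted p = 0.00526). All of these are edgeR's unadjusted p, and the lowest adjusted p of the 3 lists was 0.762 in ConAstro and 0.459 in cKOAstro. Without the label-discordant libraries the counts were 3, 0 and 2 in ConAstro (8.41% of all genes) and 1, 0 and 1 in cKOAstro (6.94%). Then Gpc3 was at 0.48, Bmp4 at 0.59, Smoc2 at -0.72 and Bmp6 at -0.57, while Itgb1 (0.10) and Lrp1 (-0.23) had an unadjusted p above 0.05.

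For SFN-fed cKOAstro against ConAstro, 0 of 14 relatives, 1 of 15 partners and 2 of 22 other regulators had an unadjusted p under 0.05, beside 8.67% of all genes. The lowest p belonged to the matrix proteoglycan Spock3 (0.34 ± 0.23, unadjusted p = 0.175), Lrp1 (-0.37 ± 0.15, unadjusted p = 0.0342) and Bmp7 (-0.39 ± 0.12, unadjusted p = 0.00825), and without the label-discordant library Lrp1 was at -0.33 (unadjusted p = 0.0632) and Bmp7 at -0.35 (unadjusted p = 0.0209). Diet averaged over genotypes gave 0, 0 and 1, beside 6.14% of all genes, with the lowest p for Chrdl2 (-0.56 ± 0.30, unadjusted p = 0.0771), Itgb1 (0.09 ± 0.06, unadjusted p = 0.117) and Bmp6 (-0.43 ± 0.20, unadjusted p = 0.0427). Bmp6 was at -0.45 (unadjusted p = 0.0592) without the label-discordant libraries.

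From library to library, members of the set varied together in part. Log2 CPM was centred on the group means and correlated over the 23 libraries, with permutations of libraries within groups, and 3 of 45 pairs passed an adjusted p of 0.05. Sparcl1 and Chrdl1 varied together (Pearson r = 0.81, p = 9e-05, adjusted p = 0.00135, Spearman rho = 0.80), as did Sparcl1 and Gpc6 (r = 0.75, p = 9e-05, adjusted p = 0.00135, rho = 0.81). Thbs3 and Chrdl1 moved in opposite directions (r = -0.80, p = 2e-05, adjusted p = 0.0009, rho = -0.74). Without the 2 libraries farthest from the median the values of r were 0.78, 0.66 and -0.68, and within the 17 numbered libraries 0.77, 0.70 and -0.75, each with an adjusted p under 0.05. Gpc6 and Megf10 had r = 0.61 (p = 0.00914, adjusted p = 0.0879), and 0.79 within the numbered libraries (adjusted p = 0.0475). Thbs1 and Thbs2 had r = 0.54 (p = 0.135, adjusted p = 0.290), which was 0.03 without ConAstro replicate 3 and SFN-fed cKOAstro replicate 5, so it rested on those libraries.

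**Figure D4:**
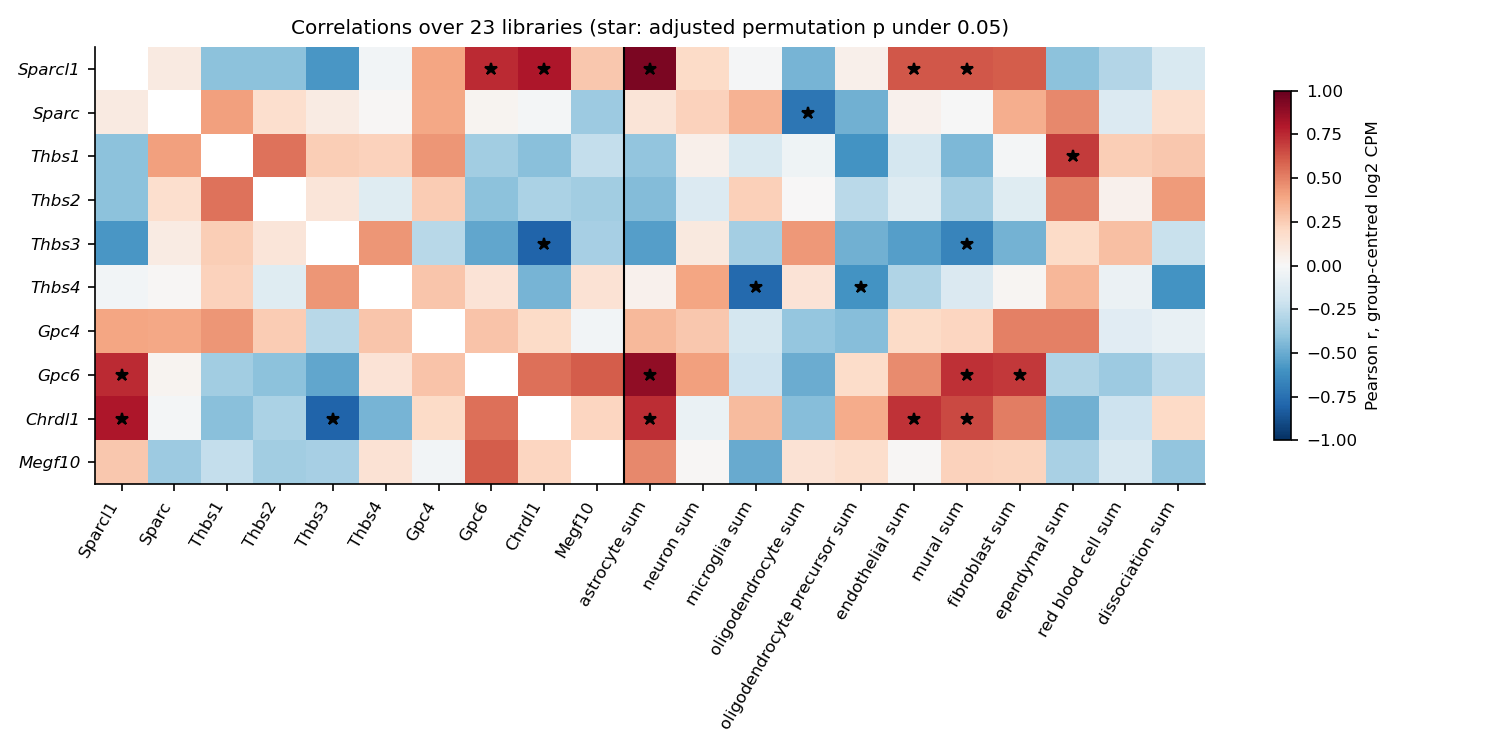
Pearson correlations over 23 libraries of group-centred log2 CPM, between the 10 genes (left block) and of each gene with the summed level of 11 marker lists (right block). Stars mark adjusted permutation p under 0.05, 3 of 45 pairs on the left and 14 of 110 on the right, and Sparcl1, Gpc6 and Chrdl1 share the astrocyte column.

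The same libraries were compared with the summed levels of 11 marker lists, and 14 of 110 pairs passed. A sum weighs each marker by its CPM. Of the 10 astrocyte markers Slc1a2 weighed most, with a median of 10450.5 CPM, against 117 (Gfap) to 3458 (Aldoc) for the others. Sparcl1 followed the astrocyte sum most closely (r = 0.94, rho = 0.93, adjusted p = 0.00055), then Gpc6 (r = 0.89, rho = 0.92, adjusted p = 0.00055) and Chrdl1 (r = 0.74, rho = 0.74, adjusted p = 0.00742). For the first 2 the permutation p was 1e-05, the smallest that 100000 permutations can give, and r was 0.93 and 0.86 within the numbered libraries and 0.92 and 0.83 without the 2 farthest libraries. Chrdl1 also followed the endothelial sum (r = 0.72, adjusted p = 0.0033), which was 0.58 within the numbered libraries with an adjusted p of 0.173. Mural markers went with Sparcl1, Gpc6 and Chrdl1 (r = 0.62, 0.73 and 0.66) and against Thbs3 (r = -0.66), fibroblast markers with Gpc6 (r = 0.71) and endothelial markers with Sparcl1 (r = 0.62). These pairs had an adjusted p from 0.0132 to 0.0228 over all libraries and above 0.05 both within the numbered libraries and without the 2 farthest libraries. Sparc went against the 8 oligodendrocyte markers (r = -0.72, adjusted p = 0.0362), with r = -0.46 and an adjusted p of 0.324 within the numbered libraries.

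Thbs4 went against the 8 microglia markers (r = -0.78, p = 0.00057, adjusted p = 0.0125, rho = -0.71) and the 6 oligodendrocyte precursor markers (r = -0.60, adjusted p = 0.0228). The microglia sum was 1093 to 1627 CPM in ConAstro, 306 to 2153 in cKOAstro, 690 to 2188 in SFN-fed ConAstro and 213 to 2548 in SFN-fed cKOAstro, with no marker at 0. The 6 libraries with the lowest microglia sums, 5 of them with Astro names, had 8.21 to 21.2 CPM of Thbs4. Within the 17 numbered libraries r was -0.69 and did not pass the threshold (permutation p = 0.126, adjusted p = 0.374, rho = -0.30), and without SFN-fed cKOAstro replicates 1 and 7 it was -0.63 (adjusted p = 0.0782). Thbs1 followed the ependymal sum (r = 0.70, p = 0.00264, adjusted p = 0.0228, rho = 0.62), with r = 0.84 within the numbered libraries (adjusted p = 0.00733) and r = 0.61 (adjusted p = 0.0773) without ConAstro replicate 3 and SFN-fed ConAstro replicate 2.

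**Figure D5:**
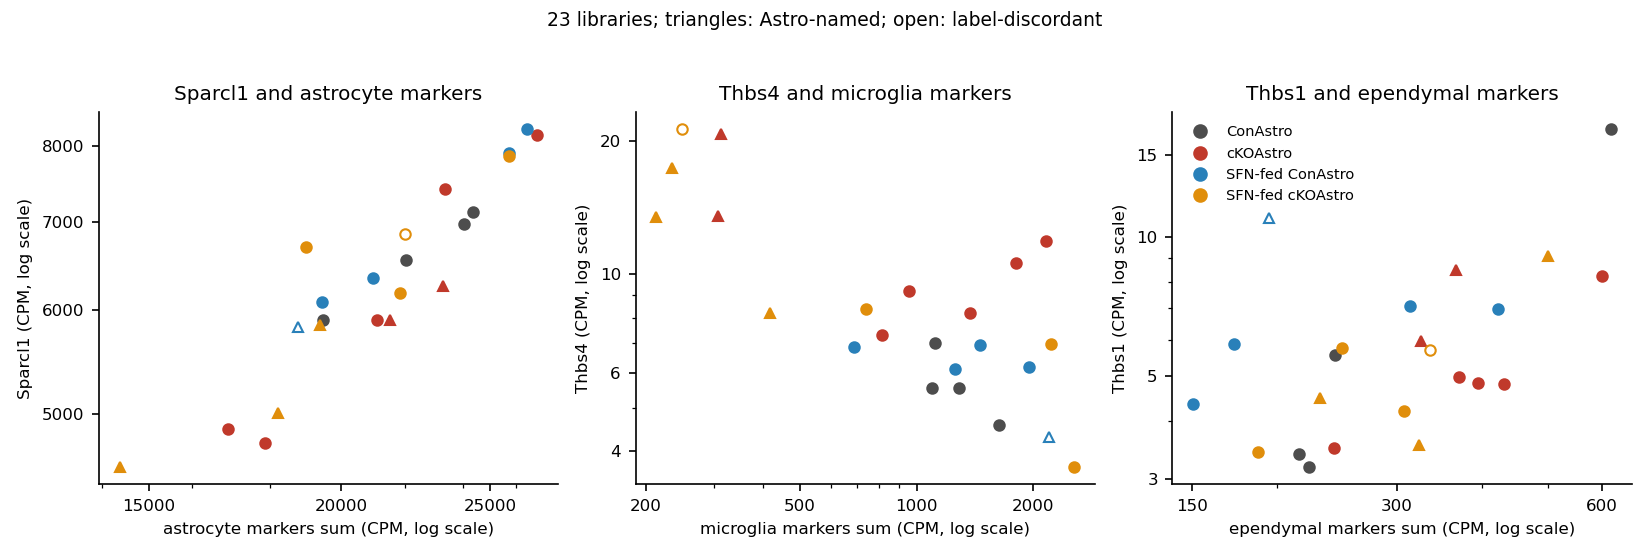
CPM of Sparcl1, Thbs4 and Thbs1 against the summed CPM of the astrocyte, microglia and ependymal markers in 23 libraries, all axes logarithmic. Triangles are Astro-named and open symbols are label-discordant libraries, and the high Thbs4 values at the left of the middle panel are mostly triangles.

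For each member, the genes whose group-centred level was most like its own over the 23 libraries were taken from 14181 genes with a mean of at least 1 CPM, as a description with no test. The nearest to Sparcl1 were Gpc5 (r = 0.98), a glypican, and Gpm6a (r = 0.97), and the nearest to Gpc6 was Xpr1 (0.96). Thbs2 was nearest to the homeobox gene Alx4 (0.96) and the collagen gene Col11a1 (0.95), and Thbs1 to Cep83 (0.89) and Iqub (0.83). Thbs4 was nearest to Elmod3 (0.88) and Cdc45 (0.86), and Thbs3 to Lzts2 (0.83) and Rrnad1 (0.82). Sparc was nearest to Eef2k (0.92) and Cebpa (0.91), Chrdl1 to Tank (0.91) and Lix1 (0.91), Megf10 to Sel1l (0.94) and Ank2 (0.93), and Gpc4, with the weakest match, to Mipep (0.76) and the heparan sulfate polymerase gene Ext1 (0.75). All of these points share libraries, and for Thbs2 they rest on ConAstro replicate 3 above all, since Alx4 spans 0.983 to 34.6 CPM and Thbs2 4.80 to 39.9 CPM over the libraries.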

How the data were processed

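Cortical astrocytes of 23 samples were profiled by poly(A) RNA sequencing. The authors deposited a table of raw counts per gene symbol, and the submitters' processing notes name FastQC, STAR and mm10, with versions and the use of strand not given in the sources used here. Groups came from the genotype and diet labels. Genes were kept with filterByExpr (minimum count 10, minimum total 15), scaled by TMM and tested with edgeR 4.0.16 in R 4.3.3 (quasi-likelihood F test), with Benjamini-Hochberg adjustment over all genes tested and a threshold of 0.05. The study used DESeq2, which was run here as an alternative (1.42.0), as was limma-voom with quality weights (3.58.1). The test was tested on simulated data before use. Lengths and positions came from GENCODE for GRCm38. Correlations used 100000 permutations within groups. Total counts of 46890715 or more left the lowest member at 202 reads. Libraries of one group differed beyond sampling noise (chi-square per degree of freedom at least 44.1). Same-numbered libraries of different groups correlated at a mean of 0.0228 over 29 pairs, so numbers were not taken to pair them.

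The naming rule took the 10 members, the 3 highest genes per kb of each related list and the 2 genes most alike to each member. Per comparison it also took the gene of lowest p of each related list. In comparisons over all 4 groups and for SFN-fed cKOAstro against ConAstro, some members are given only as counts. For genotype averaged over diets these include members with an unadjusted p under 0.05. Members and lists were chosen with earlier results of these data known. A gene that this rule also names is not reported here.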

Additional observations from a re-analysis of the deposited data

Results flagged for a closer look

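In 3 of 40 groups of libraries (10 genes in 4 groups), the highest or lowest library stood farther from its nearest neighbour than Dixon's 95% limit allows, and chance alone gives this in about 1 in 20 groups. Thbs2 in ConAstro replicate 3 was 39.9 CPM, with the nearest library at 7.36 CPM, a gap of 0.941 of the group's range against a limit of 0.829. Thbs1 in SFN-fed cKOAstro replicate 5, an Astro-named library, was 9.10 CPM, with the nearest at 5.76 CPM (0.589 against 0.568). Megf10 in SFN-fed cKOAstro replicate 1 was 209 CPM, with the nearest at 283 CPM (0.700 against 0.568).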

How the results depend on the processing

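Of 2020 log2 changes of the 10 genes recomputed under other settings, 1887 kept their direction and their side of the threshold, 123 changed sign while not called, 10 became called and 0 called values changed sign. Limma-voom called 4 members (Thbs2, Thbs3, Thbs4 and Gpc6) between the genotypes on the SFN diet and 4 (Thbs3, Thbs4, Gpc6 and Megf10) for genotype averaged over diets, where DESeq2 called 1 (Thbs4). The count of members called by edgeR for genotype averaged over diets ran from 0 to 1 when each library was left out in turn, with 1 (Thbs4) without SFN-fed cKOAstro replicate 3, and was 0 in every other comparison. With the replicate block, 0 members were called in each of the 8 comparisons and 1 gene in all was called for cKOAstro against ConAstro, where the unblocked fit called 4 and DESeq2 8. Without ConAstro replicate 3, SFN-fed ConAstro against ConAstro changed from -0.07 to 0.79 for Thbs1 and from -0.86 to 0.40 for Thbs2. Of the 14 pairs of members and marker sums that passed, the count was 3 within the numbered libraries and 6 without the 2 farthest libraries. The cause was not tested. The lowest count of a member in any library was 202 reads.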

Other observations

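Among the related genes, Smoc2 and Bmp4 had the lowest p for the interaction of genotype and diet in their lists, and neither passed the adjusted threshold (edgeR). Smoc2 had log2 changes of 0.89 between the genotypes on the control diet and -0.45 between the SFN-fed groups, an interaction of -1.35 ± 0.31 (unadjusted p = 0.000273, adjusted p = 0.673). Bmp4 had log2 changes of 0.57 and -0.36 between the genotypes on the control and SFN diets, an interaction of -0.94 ± 0.26 (unadjusted p = 0.00139, adjusted p = 0.673). Among the receptors and partners the lowest p was that of Nlgn1 (-0.35 ± 0.18, unadjusted p = 0.0703). Without the label-discordant libraries the interactions were -1.43 for Smoc2 (unadjusted p = 0.000419), -0.88 for Bmp4 (unadjusted p = 0.00407) and -0.43 for Nlgn1 (unadjusted p = 0.0295), with a lowest adjusted p of 0.422. These comparisons share libraries. All cKOAstro libraries lay above all ConAstro libraries for Bmp4, which 0.287% of genes showed in that direction, and so did all SFN-fed ConAstro libraries (1.01%). For genotype averaged over diets the lowest p belonged to Spock2 (-0.51, unadjusted p = 0.00629), Lrp1 (-0.26, unadjusted p = 0.0104) and Bmp7 (-0.28, unadjusted p = 0.00335), and these were -0.52, -0.28 and -0.30 without the label-discordant libraries, with an adjusted p of 0.232 each.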
